A study of Oryza sativa with 6 samples.

Results

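The response to drought was measured in leaves of IR64, a rice (Oryza sativa) genotype that the submitters call susceptible to drought. Its members are the 3 arrays labelled as IR64 replicates 1 to 3, of 6 arrays in all. The other 3 arrays carried leaves of Apo, a genotype described as tolerant, and served for comparison. Each array was an Agilent rice oligonucleotide array that held a pair of RNAs of 1 genotype, drought-stressed leaf RNA labelled with Cy3 and well-watered leaf RNA labelled with Cy5, and no array had the dyes exchanged. Greenhouse plants had water withheld from day 33 after sowing. Stressed leaves were taken after 5 days of stress by the sample labels and after 6 by the series text, and the harvest of well-watered leaves was dated to day 37. The labels do not say whether replicates came from separate plants, so the p-values speak of the spread among these samples and nothing wider, and that spread may be technical.

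The deposited value of a probe is a log ratio between both RNAs of an array, taken here as log10 because the software writes that base; the base itself is not recorded. Which RNA is on top of the ratio is not stated either. The software's usual order with these dyes would put well-watered RNA on top, while the dehydrins, known from textbooks to accumulate in leaves short of water, had positive ratios. Ratios are therefore called positive or negative, and no gene is said to be higher or lower in drought. Values are log10 ratios, given array by array in the order of the replicate numbers or as mean ± SD (n = 3 arrays), and folds hold only if the base is 10. A dye effect common to all arrays stays in a ratio tested against 0 and cancels in IR64 minus Apo. A ratio carries no level, so leaf identity could not be checked from leaf markers, and depth is not known beyond the number of arrays.

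When leaves run short of water, rice makes abscisic acid, a hormone that closes stomata. Its receptors inhibit clade A protein phosphatases 2C, which frees the SnRK2 kinases (called SAPK in rice) to activate transcription factors. Among the known targets are dehydrins and other late embryogenesis abundant proteins, which protect membranes and proteins in drying cells. Photosynthesis, water channels and growth are further processes known to respond to drying in leaves.

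The 3 IR64 arrays were not alike. Across 17727 annotated probes, the ratios of IR64 replicates 2 and 3 correlated with r = 0.938, whereas IR64 replicate 1 correlated with them at only 0.755 and 0.767. IR64 replicate 1 correlated more closely with the Apo arrays, at 0.857, 0.832 and 0.894, values within reach of those among the Apo arrays themselves, which were 0.865 to 0.927. IR64 replicates 2 and 3 correlated with Apo arrays at 0.624 to 0.734. These correlations run across probes, which are not independent replicates, and carry no test. The median absolute gap between IR64 replicate 1 and the mean of the other two was 0.111, against 0.0465 between replicates 2 and 3, and IR64 replicate 1 lay nearer to the Apo mean for 11042 probes (62.3%). The median probe had an SD of 0.0795 over the IR64 arrays and of 0.0569 over the Apo arrays. Results are given with and without IR64 replicate 1 where this matters, and why it lies apart was not tested.

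**Figure D1:**
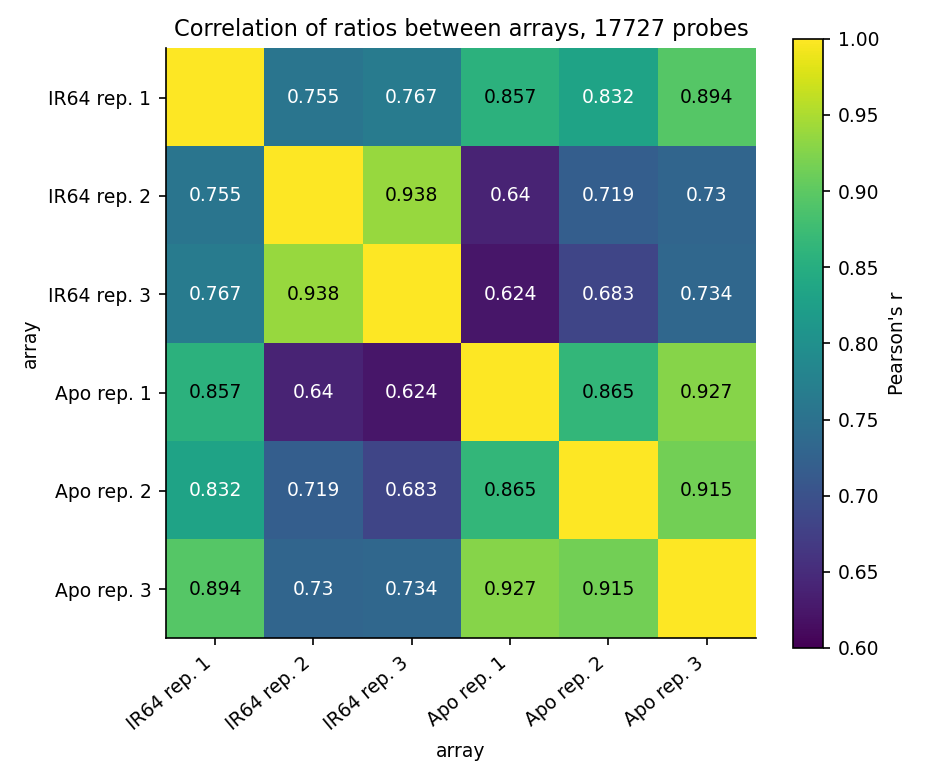
Pearson's r between the ratios of each pair of arrays over 17727 probes, with arrays on both axes and r as colour and number. IR64 replicates 2 and 3 form the closest pair at 0.938, and IR64 replicate 1 is nearer to each Apo array (0.832 to 0.894) than to the other IR64 arrays (0.755 and 0.767).

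In IR64, 7619 of 17727 probes (43%) differed from 0 at an adjusted p under 0.05 (limma with 1 mean per genotype, Benjamini-Hochberg over all probes). The ratio was positive for 4031 (22.7%) and negative for 3588 (20.2%), and for 7596 the 3 arrays had 1 sign. Of the called probes, 3141 (17.7% of all) passed a 2-fold ratio, 547 a 5-fold ratio and 155 a 10-fold ratio. The last were 100 positive and 55 negative probes, and past 20-fold there were 28 positive and 13 negative probes. Without IR64 replicate 1, 8457 probes (47.7%) were called, 4592 positive (25.9%) and 3865 negative (21.8%). Both fits called 6799 probes, which were 89.2% of the calls with that array and 80.4% of those without it, and no probe was called on opposite sides. A further 1658 probes were called only without IR64 replicate 1, and for 1173 of them its ratio had the opposite sign. The count was 5076 without IR64 replicate 2 and 5266 without IR64 replicate 3. In limma's fit both genotypes share 1 estimate of the spread, so its p-values are not computed from the IR64 SD printed beside them. On the IR64 arrays alone 5328 probes were called. Of the 240 probes named in the text, 17 lost and 2 gained a call there. A gene name was at hand for 2395 tested probes of 2099 genes, of which 1130 (47.2%) were called, and what follows describes these. In whole leaves, fewer cells of a type and less RNA per cell cannot be told apart.

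The largest positive ratios belonged to membrane and desiccation proteins. PM19L1 (LOC4338635), an AWPM-19-like membrane protein, had ratios of 1.58, 1.88 and 1.84 on the IR64 arrays, a mean of 1.77 ± 0.165 or 58.3-fold (limma adjusted p = 1.87e-05). LTI6B (LOC4337750), a small hydrophobic membrane protein of the cold- and salt-responsive family, had 1.67, 1.06 and 1.12, with IR64 replicate 1 far above the others (mean 1.28 ± 0.337, adjusted p = 0.000299). ELA3 (LOC4341858), an early nodulin-like protein, had 1.39, 1.47 and 1.4, and its arrays lay close together (mean 1.42 ± 0.0397, adjusted p = 7.51e-06). The 3 probes named as RAB16 dehydrins were all among the 12 largest. RAB16B (LOC4350453) had 0.822, 1.8 and 1.81, so that IR64 replicate 1 was far below the other arrays (mean 1.48 ± 0.566, adjusted p = 0.00124). RAB16C (LOC4350452) had 1.49, 1.61 and 1.2 (mean 1.43 ± 0.21, adjusted p = 5.29e-05), and RAB16D (LOC4350451) had 0.97, 1.58 and 1.27 (mean 1.27 ± 0.303, adjusted p = 0.00137). For these close relatives, whether probes read each other's transcripts was not tested.

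Sugar transport, signalling and metal binding supplied the rest of the 12. SWEET15 (LOC4329464), a sugar exporter, had 1.31, 1.28 and 1.26 (mean 1.28 ± 0.0241, adjusted p = 9.84e-06), among the tightest sets of values. The protein phosphatase PP2C59 (LOC4341949) had 1.36, 1.26 and 1.21 (mean 1.28 ± 0.0752, adjusted p = 1.10e-05), and r40c1 (LOC4332715) had 1.33, 1.16 and 1.28 (mean 1.26 ± 0.0903, adjusted p = 1.19e-05). The metallothionein MT4 (LOC4349263), a small cysteine-rich metal-binding protein, had 1.16, 1.44 and 1.16 (mean 1.25 ± 0.159, adjusted p = 0.000127). Both transcription regulators of the set had wider spreads. C3H37 (LOC4339379), a CCCH zinc finger protein, had 0.901, 1.23 and 1.37, with IR64 replicate 1 lowest (adjusted p = 0.000289), and the heat shock factor HSF01 (LOC4326351) had 1.36, 1.04 and 0.958, with IR64 replicate 1 highest (adjusted p = 0.000105).

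The largest negative ratio was that of MT2B (LOC4326409), another metallothionein, with -1.57, -1.56 and -1.53 and a mean of -1.55 ± 0.018, or 35.8-fold (limma adjusted p = 7.51e-06). A second probe of MT2B had a mean of 0.0852 ± 0.0385 and was not called (adjusted p = 0.263). A probe of eIF-4G (LOC4343565), a subunit of the translation initiation complex, had -1.36, -1.51 and -1.6 (mean -1.49 ± 0.123, adjusted p = 1.83e-05). Its probes disagreed, since another was called positive at 0.184 ± 0.0587 (adjusted p = 0.00508). Chloroplast genes came next. CAB2R (LOC4324599), a light-harvesting chlorophyll a/b-binding protein, had -1.45, -1.11 and -1.11 (mean -1.22 ± 0.199, adjusted p = 0.000317), and CRSH2 (LOC4337890), a plastid synthase of the alarmone ppGpp, had -1.26, -1.23 and -1.15 (mean -1.21 ± 0.055, adjusted p = 0.000128). The actin-depolymerizing factor ADF7 (LOC4337605) had -1.22, -1.13 and -1.23 (adjusted p = 1.19e-05) and the thioredoxin Trx03 (LOC4324320) had -1.08, -1.23 and -1.22 (adjusted p = 1.91e-05). Transporters made up much of the remainder. SWEET2b (LOC4326923), a sugar transporter, had -1.12, -0.993 and -0.973 (adjusted p = 1.61e-05), the plasma membrane water channel PIP2-7 (LOC4347729) had -1.03, -0.988 and -1.02 (adjusted p = 6.40e-05), and PHO1-3 (LOC4341088), of the phosphate exporter family, had -1.6, -0.756 and -0.65 (adjusted p = 0.0070). For PHO1-3 the ratio of IR64 replicate 1 was far more negative than that of either other array, while the SWEET2b and PIP2-7 arrays nearly coincided. The other three were mfs1 (LOC4326904) with -1.18, -1.11 and -1.06 (adjusted p = 3.37e-05), ALN (LOC4337428), the allantoinase of ureide breakdown, with -1.05, -1.07 and -0.924 (adjusted p = 3.39e-05), and 4CLL7 (LOC4342925), a 4-coumarate:CoA ligase-like enzyme, with -0.998, -1.03 and -0.935 (adjusted p = 1.19e-05).

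**Figure D2:**
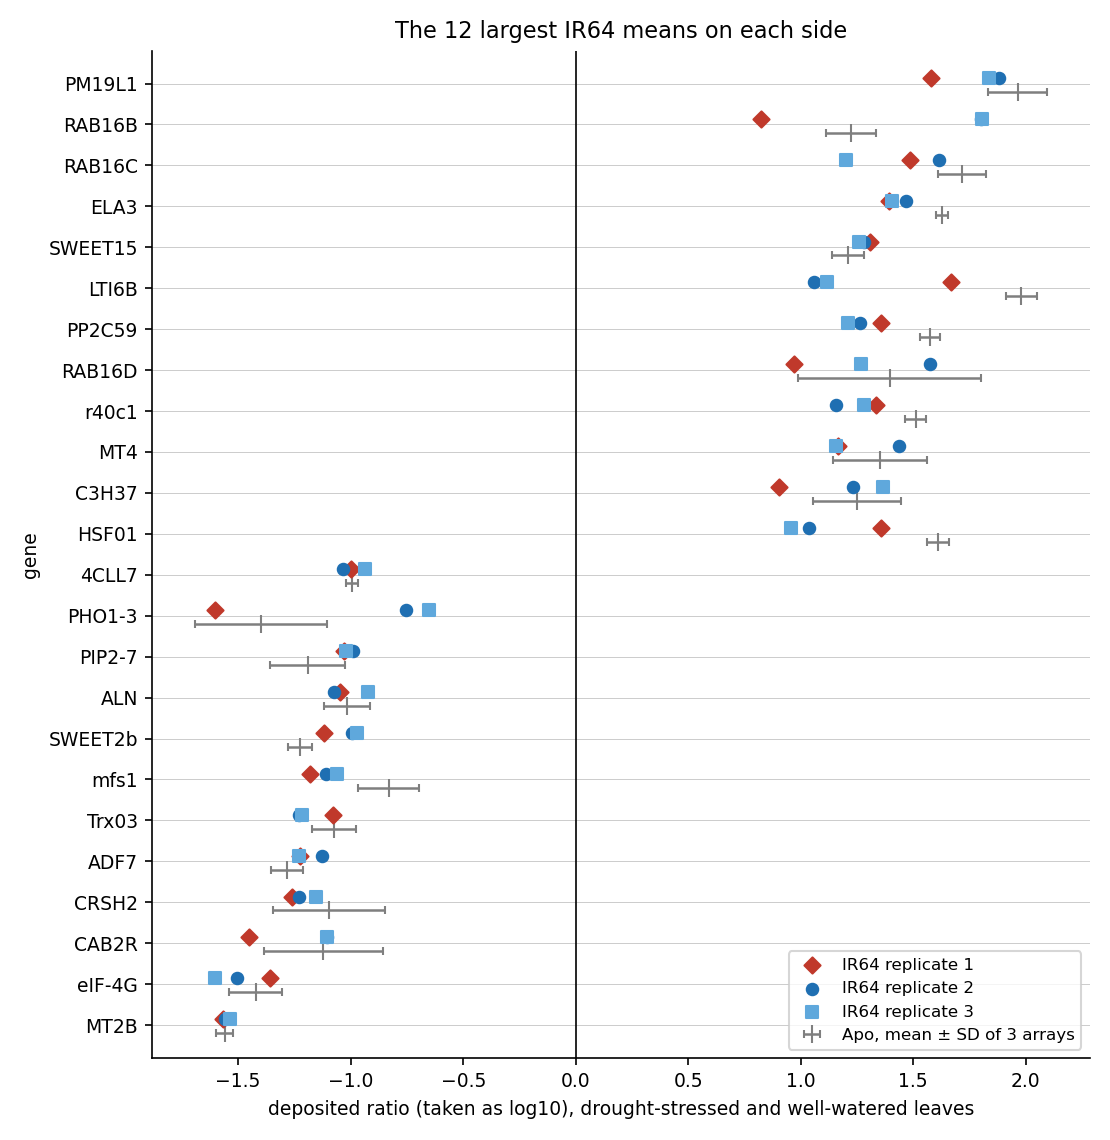
Deposited log10 ratios of the 12 named genes with the largest positive and the 12 with the largest negative IR64 mean. Coloured points are the 3 IR64 arrays and grey bars the mean ± SD of the 3 Apo arrays; IR64 replicate 1 stands apart from IR64 replicates 2 and 3 for RAB16B, LTI6B and PHO1-3.

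Genes of the abscisic acid pathway were mostly positive where they were called. The called share was 83.3% for dehydrins and related proteins, 57.1% for signalling and 55.6% for synthesis and breakdown. Over all probes it was 43% (22.7% positive, 20.2% negative). Of 6 dehydrins and related proteins 5 were positive at every setting that left out an array, with a list median of 1.06 against a median of 0 over all probes. Beside the RAB16 genes these were rab25 at 0.851 ± 0.174 and Dhn1 at 0.685 ± 0.028. EM, a late embryogenesis abundant protein best known from seeds, had 0.848, 0.205 and 0.159 and was not called (adjusted p = 0.0512). Of 21 probes for abscisic acid signalling, 10 were positive and 2 negative, 10 and 3 without IR64 replicate 1, and 1 negative without IR64 replicate 2. The list median was 0.351, 0.0743 and 0.0866 on the 3 arrays, largest on IR64 replicate 1. The positive members included the phosphatase PP2C30 at 0.506 ± 0.124 and the SnRK2 kinases SAPK4 at 0.451 ± 0.115, SAPK10 at 0.481 ± 0.139 and SAPK6 at 0.304 ± 0.0926 (limma adjusted p = 0.000377 to 0.00139). VP1, a B3 factor of the abscisic acid response, was negative at -0.243 ± 0.118, a call lost without IR64 replicate 2 (adjusted p = 0.0631). Synthesis and breakdown showed no common side, with 2 positive and 3 negative of 9 probes and 1 negative without IR64 replicate 2. Among phytoene synthases, which supply the carotenoid precursors, PSY2 was negative at -0.761 ± 0.0408 and PSY3 positive at 0.352 ± 0.143. Among aldehyde oxidases, the enzyme family of the last step, AO-2 was positive at 0.35 ± 0.144 and AO-1 negative at -0.251 ± 0.117 (adjusted p = 0.0673 without IR64 replicate 2). The abscisic acid hydroxylase ABA8OX1, which starts breakdown, had 0.132, -0.0957 and -0.0615 and was not called (adjusted p = 0.919).

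Enzymes that make compatible solutes were called on both sides. In this list 75% of probes were called, against 43% over all probes (22.7% positive, 20.2% negative). Of 12 probes for proline, trehalose and glycine betaine, 5 were positive and 4 negative; the negative count was 2 without IR64 replicate 2 or 3. Ornithine aminotransferase OAT was positive at 0.604 ± 0.0359, the betaine aldehyde dehydrogenase BADH at 0.241 ± 0.0993, and the pyrroline carboxylate synthetase P5CS2, which makes the proline precursor, at 0.451 ± 0.134 on one probe. A second P5CS2 probe had 0.265 ± 0.231 and was not called (limma adjusted p = 0.108; 0.0301 under the replicate block, a fit that pairs arrays of equal replicate number). The trehalose phosphate phosphatase TPP1 was negative at -0.636 ± 0.0831. Small heat shock proteins, which hold unfolding proteins in solution, included several large ratios. Of 19 probes for these, HSP90 and the ClpB family, 6 were positive and 2 negative, with 1 negative without IR64 replicate 2 or 3 or Apo replicate 2 or 3. The called share was 42.1% for them and 47.4% for heat shock factors, near the 43% over all probes. HSP26.7 had 1.07, 1.1 and 1.11 and one HSP18.0 probe 0.969, 1.01 and 1.02, with hardly any spread between arrays, and HSP23.2 had a mean of 0.583 ± 0.151. The disaggregase hsp101 was positive at 0.405 ± 0.134 and HSP22.3 negative at -0.824 ± 0.133 (limma adjusted p = 9.84e-06 to 0.00123 for these 5 probes). A second HSP18.0 probe was called positive only without IR64 replicate 1 (adjusted p = 0.00804, against 0.114 with it). Of 19 heat shock factor probes 6 were positive and 3 negative, and 6 of each without IR64 replicate 1; the negative count was 1 without IR64 replicate 2 or 3. HSF05 was positive at 0.469 ± 0.116 and HSF2 at 0.52 ± 0.212, while HSF02 was negative at -0.532 ± 0.206.

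Transcription factor families are given beside the shares over all probes, which were 43% called, 22.7% positive and 20.2% negative. The called share was 45.5% for NAC, 51.7% for homeobox and 41.8% for CCCH probes, not far from that over all probes. It was 62.5% for MADS box probes. In 11 probes of NAC factors, plant-specific regulators of stress and ageing, 4 were positive and 1 negative, but 2 and 3 without IR64 replicate 1 and 2 positive without IR64 replicate 2. NAC2 at 0.35 ± 0.128 and NAC068 at 0.253 ± 0.0879 were positive and NAC067 negative at -0.592 ± 0.0514. NAC010 at 0.281 ± 0.0855 lost its call without any 1 of the IR64 arrays (limma adjusted p = 0.0814, 0.0781 and 0.0511 without replicates 1, 2 and 3). NAC048 had 0.409, -0.0229 and -0.0593, with only IR64 replicate 1 away from 0 (adjusted p = 0.372). Of 29 homeobox probes 12 were positive and 3 negative, with 8 positive without IR64 replicate 2 or 3. hox29 at 0.678 ± 0.0889, HOX7 at 0.607 ± 0.127 and the epidermal-type factor Roc4 at 0.387 ± 0.0804 were positive, and Hox21 was negative at -0.778 ± 0.211 (adjusted p = 0.000119 to 0.00161). CCCH zinc finger probes were called positive in 16 of 55 and negative in 7, with 4 negative without IR64 replicate 3 or Apo replicate 3 and 11 under the replicate block. Beside C3H37, C3H54 had 0.749 ± 0.16 and C3H35 0.747 ± 0.0557. MADS box factors, which regulate flowering and floral organs, were called mostly negative, 13 of 24 against 2 positive. They included MADS55 at -0.60 ± 0.0491, MADS58 at -0.541 ± 0.0188, MADS50 at -0.446 ± 0.0621 and MADS18 at -0.367 ± 0.0489, and the negative count stayed between 10 and 13 whichever IR64 array was left out.

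The circadian clock list had the largest share of negative calls, 7 of 8 probes against 20.2% over all probes, with array medians of -0.356, -0.317 and -0.361. The labels give no time of day of the harvests, so clock time and treatment cannot be told apart for these genes. The morning factor LHY at -0.456 ± 0.128 and the pseudo-response regulators PRR37 at -0.619 ± 0.0521, PRR73 at -0.373 ± 0.128 and PRR95 at -0.341 ± 0.0559 were among the negative calls (limma adjusted p = 4.63e-05 to 0.00687). IR64 replicate 1 did not stand apart in this list's median. Of 8 probes of DREB and other ERF factors, which bind the drought-responsive promoter element, 1 was positive, 2 under the replicate block, and 3 were negative. Their called share was 50%, against 43% over all probes. DREB1G was negative with -0.463, -0.885 and -0.84 (adjusted p = 0.00167), and DREB1A and DREB1B, described with the genotype difference, were negative too. DREB2A had 0.582, 0.139 and 0.151 and was positive (adjusted p = 0.034), a call lost without IR64 replicate 3 (0.051) and without Apo replicate 1, 2 or 3 (0.0645, 0.0558 and 0.0598). DREB2C had 0.947, -0.265 and 0, large on IR64 replicate 1 alone, and was not called (adjusted p = 0.516; 0.0472 under the replicate block).

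Where they were called, probes of photosynthetic electron transport and of photorespiration were mostly negative. Of 15 photosystem and electron transport probes 8 were negative, 6 without IR64 replicate 1, and 0 positive, also at an unadjusted p under 0.05. Over all probes, 9096 had an unadjusted p under 0.05. The called share was 53.3% for this list and 77.8% for photorespiration, against 43% over all probes (22.7% positive, 20.2% negative). ndhM, a subunit of the NDH complex of cyclic electron flow, had -0.628 ± 0.0923, ferredoxin, the soluble electron carrier, had -0.372 ± 0.0635, and OEE3, an extrinsic protein of the oxygen-evolving complex, had -0.562, -0.284 and -0.253, with IR64 replicate 1 the most negative. Photorespiration, which salvages the product of Rubisco's oxygenase activity, had 6 negative and 1 positive of 9 probes, with 2 positive under the replicate block. Its median was -0.634 on IR64 replicate 1 but -0.209 and -0.186 on replicates 2 and 3. The glycine cleavage protein GDCSH had -0.831 ± 0.0818, the ferredoxin-dependent glutamate synthase GLU -0.659 ± 0.0475, the plastid glutamine synthetase GLN2 -0.652 ± 0.227 and a probe of the glycolate oxidase GLO5 -0.614 ± 0.0414 (limma adjusted p = 2.45e-05 to 0.00122). Other glycolate oxidase probes disagreed. GLO1 was positive on one probe at 0.215 ± 0.0365 and negative on another at -0.239 ± 0.14, the second GLO5 probe had -0.788, 0.195 and 0.0607, and GLO3 had 0.681, 0.182 and 0.13; neither GLO5's second probe nor GLO3 was called (adjusted p = 0.535 and 0.0544), though both were under the replicate block (0.0439 and 0.00811). GLO4 had -0.634, -0.209 and -0.186 and was negative (adjusted p = 0.033), but not without IR64 replicate 1 (0.0953), 2 (0.0651) or 3 (0.0524), nor without Apo replicate 2 (0.0511) or 3 (0.0506).

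Chlorophyll synthesis was called on both sides. Of 17 probes, 6 were negative and 2 positive, and the positive count was 4 without IR64 replicate 1 or under the replicate block. The called share was 47.1%, near the 43% over all probes and the 47.2% over named probes. GSA, the glutamate semialdehyde aminotransferase, at 0.362 ± 0.0618 on one probe and CPX, coproporphyrinogen oxidase, at 0.646 ± 0.0536 were the 2 positive calls; a second GSA probe had 0.132 ± 0.0725 and was not called (limma adjusted p = 0.128, and 0.0365 under the replicate block). CHLH, a subunit of the magnesium chelatase, had -0.397 ± 0.142, the uroporphyrinogen synthase HEMD -0.273 ± 0.025 and the geranylgeranyl reductase CHLP -0.483 ± 0.204, all negative (adjusted p = 0.000803 to 0.00333). PORB, a light-dependent protochlorophyllide oxidoreductase, had -0.719, -0.197 and -0.206 and was negative (adjusted p = 0.025; 0.0503 without Apo replicate 1). Chlorophyll breakdown moved with the array. NYC1, a chlorophyll b reductase, had 0.0819, -0.20 and -0.192, and SGR, the magnesium-removing stay-green protein, had 0.0839, -0.15 and -0.20; both were slightly positive on IR64 replicate 1 and negative on the others. Neither was called with all arrays (adjusted p = 0.203 and 0.238), and both were negative without IR64 replicate 1 (0.00542 and 0.00509). Isocitrate lyase ICL, of the glyoxylate cycle, had 0.678, 1.15 and 1.23 and was positive (adjusted p = 0.000525). The chloroplast proteases FtsH and Clp had 10 negative and 6 positive of 22 probes, with FTSH6 at 1.08 ± 0.0207 and CLPD1 at 0.797 ± 0.173 positive and FTSH9 at -0.631 ± 0.059 and CLPD2 at -0.533 ± 0.050 negative. Of the protease probes 72.7% were called. Plastid ppGpp synthases other than CRSH2 included RSH3 with 0.469, -0.10 and -0.065, positive only on IR64 replicate 1 and not called (adjusted p = 0.48).

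Of 12 probes for water channels of the plasma membrane 6 were negative (5 without IR64 replicate 1), 1 positive and 5 not called; the positive count was 0 without IR64 replicate 2 or 3 (2 at an unadjusted p under 0.05 with all arrays) and 2 without Apo replicate 2 or under the replicate block. The called share was 58.3%, against 43% over all probes (22.7% positive, 20.2% negative). That of vacuolar and other aquaporins was 58.8%, of lipid transfer proteins 83.3% and of ABC transporters 81.25%. Beside PIP2-7, PIP2-2 had -0.933 ± 0.13, PIP1-3 -0.702 ± 0.0689 and PIP2-5 -0.785 ± 0.186 (limma adjusted p = 4.45e-05 to 0.000271). The exception was PIP2-6 with 0.0671, 0.442 and 0.353 (adjusted p = 0.0157), a call that was lost without IR64 replicate 2 (0.0833) or 3 (0.0853). Of 17 vacuolar and other aquaporin probes 8 were negative and 2 positive (1 positive without IR64 replicate 2, Apo replicate 1 or Apo replicate 3), TIP1-2 having -0.796 ± 0.19 and TIP1-1 -0.40 ± 0.0493. Lipid transfer proteins, which carry lipids to the cuticle and membranes, stood on the other side, with 5 of 6 probes positive and a median of 0.598. LTP2-A had 0.973, 1.11 and 1.13, LTP2-B 0.895, 1.08 and 1.09 and LTP-2 0.825, 0.864 and 0.832, so that IR64 replicate 1 was lowest for each, by the least for LTP-2; LTP2-A and LTP2-B are close relatives whose probes may share transcripts, which was not tested. LTP110-A had 0.375, -0.552 and -0.689, positive only on IR64 replicate 1, and was not called (adjusted p = 0.393). ABC transporters had 9 positive and 4 negative of 16 probes, with 5 positive without IR64 replicate 2 or 3 and 2 negative without IR64 replicate 3. ABCG36 was positive at 0.959 ± 0.216 and ABCG45 at 0.673 ± 0.0747, and ABCI12 was negative at -0.427 ± 0.020. ABCG39 was positive on one probe at 0.439 ± 0.0763 and negative on another at -0.225 ± 0.0614, the latter call lost without IR64 replicate 1 (adjusted p = 0.0588) or 3 (0.0963).

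With all arrays, detoxification and antioxidant genes were called more often than the 43% over all probes (22.7% positive, 20.2% negative) and the 47.2% over named probes. The called share was 62.5% for glutathione S-transferases, 71.9% for antioxidant enzymes and 57.5% for thioredoxins and glutaredoxins. Calls lay on both sides. Glutathione S-transferases, which conjugate toxic compounds, were the exception, with 5 of 8 probes positive and 0 negative, also at an unadjusted p under 0.05, and 3 positive without IR64 replicate 3. GSTF1 had 0.583 ± 0.213 and a probe of GSTU6 0.40 ± 0.0277, while a second GSTU6 probe had 0.0892 ± 0.135 and was not called (limma adjusted p = 0.327). Of 32 probes of antioxidant enzymes 11 were positive and 12 negative. The superoxide dismutase sodA was positive with 0.776, 0.733 and 0.767, the catalase CAT-B with 0.555, 0.64 and 0.68 and the cytosolic ascorbate peroxidase APX1 with 0.344, 0.329 and 0.347, each nearly the same on all arrays. The chloroplast ascorbate peroxidase APX8 at -0.491 ± 0.0716 and the monodehydroascorbate reductase MDAR2 at -0.531 ± 0.0993 were negative (adjusted p = 1.59e-05 to 0.000235 for the 5). Of 40 probes for thioredoxins and glutaredoxins, small proteins that reduce disulfides, 10 were positive and 13 negative, with Trx26 at 0.343 ± 0.019 positive and the chloroplast thioredoxin-like cdsp32 at -0.612 ± 0.144 negative.

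Genes of carbon metabolism were called on both sides. Sucrose synthase SUS4, which cleaves sucrose, had 1.05, 1.07 and 0.987, nearly the same on each array, the sugar transporter SWEET4 had 0.428 ± 0.0349, and the neutral invertase NIN3 was negative at -0.359 ± 0.0594. Over the 35 probes for sucrose transport and cleavage 9 were positive and 7 negative, near the shares over all probes (22.7% and 20.2%). In starch metabolism 3 of 20 probes were positive and 7 negative. The alpha-amylase AMY1.5 was positive at 0.717 ± 0.0147 and the branching enzyme Sbe1 at 0.28 ± 0.0513, while the starch synthase SSII-2 at -0.539 ± 0.116 and the cytosolic disproportionating enzyme DPE2 at -0.241 ± 0.0144 were negative (limma adjusted p = 1.65e-05 to 0.000761). Hexokinases and glycolytic enzymes had 11 positive and 4 negative of 25 probes. The cytosolic glyceraldehyde phosphate dehydrogenase GAPC had 0.683 ± 0.0821, the aldolase FBA3 0.565 ± 0.0949 and the hexokinase HXK4 0.534 ± 0.125. The pyruvate phosphate dikinase PPDK1 at -0.832 ± 0.0178 and the pyruvate decarboxylase PDC2 at -0.517 ± 0.0422 were negative (adjusted p = 2.45e-05 to 0.000327 for the 5).

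Nitrogen uptake and assimilation was called negative in 11 of 26 probes and positive in 5, with 7 negative without IR64 replicate 2. The called share was 61.5% here, 58.7% for iron, zinc and manganese and 48.1% for potassium and sodium. Over all probes it was 43% (22.7% positive, 20.2% negative). The ammonium transporter AMT1-1 had -0.751 ± 0.0686, the nitrate transporter NRT2.3 -0.615 ± 0.074 and a probe of nitrate reductase NIA1 -1.09, -0.629 and -0.599, most negative on IR64 replicate 1. A second NIA1 probe was not called at 0.0252 ± 0.0664 (limma adjusted p = 0.60). The glutamate dehydrogenase GDH2 was positive at 0.436 ± 0.177. Transporters of iron, zinc and manganese had 12 positive and 15 negative of 46 probes. The zinc transporter ZIP4 had 0.676 ± 0.0213, NRAMP6 0.586 ± 0.0462, the iron transporter IRT1 -0.627 ± 0.119 and YSL16, a carrier of metal chelates, -0.75 ± 0.118 (adjusted p = 4.34e-05 to 0.000172). NRAMP4 was positive on one probe at 0.738 ± 0.105 and negative on a second at -0.121 ± 0.0558, the latter call lost without IR64 replicate 2 (adjusted p = 0.164) or 3 (0.0845) and without Apo replicate 3 (0.0651). For potassium and sodium, 6 of 27 probes were positive and 7 negative, again near the shares over all probes, among them the potassium transporters HAK16 at 0.706 ± 0.0719 and HAK17 at -0.764 ± 0.0777.

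Genes of jasmonate, auxin response and cytokinin were called negative more often than positive, against 20.2% negative and 22.7% positive over all probes. Jasmonate synthesis and signalling had 12 negative and 4 positive of 36 probes, the positive count being 2 without IR64 replicate 2 or 3 or Apo replicate 3. The synthesis enzymes AOS, allene oxide synthase, at -0.451 ± 0.0404 and OPR10 at -0.44 ± 0.0686 and the repressors TIFY1a at -0.343 ± 0.0206 and TIFY6b at -0.405 ± 0.0359 on one probe were negative (limma adjusted p = 0.000113 to 0.00107). A second TIFY6b probe had 0.024 ± 0.067 and was not called (adjusted p = 0.612), and the repressor TIFY11c was positive with 1.1, 0.668 and 0.686. Auxin response factors and Aux/IAA repressors had 15 negative and 7 positive of 43 probes, with IAA9 at 0.672 ± 0.0797 and IAA6 at 0.413 ± 0.0198 positive and ARF9 at -0.644 ± 0.0968 and IAA8 at -0.652 ± 0.0331 negative. Cytokinin genes had 10 negative and 7 positive of 35 probes. A probe of LOG, which activates cytokinins, had -0.569 ± 0.0321, LOGL7 -0.267 ± 0.00924 and the response regulator RR24 -0.225 ± 0.0193, and the phosphotransfer protein AHP1 was positive at 0.338 ± 0.0839; a second LOG probe had 0.0561 ± 0.0798 and was not called (adjusted p = 0.319). Ethylene was called mostly positive, 4 of 10 against 1 (2 negative under the replicate block), with the synthase ACS2 at 0.392 ± 0.0268 and the receptors ETR2 at 0.371 ± 0.147 and ERS1 at 0.19 ± 0.0309.

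Calls of protein synthesis genes changed with the array left out. With all arrays the called share was 47.4% for ribosomal proteins, 38.9% for translation factors and 47.8% for the endoplasmic reticulum list. Over all probes it was 43% (22.7% positive, 20.2% negative). Without IR64 replicate 1 these shares were 84.2%, 72.2% and 52.2%, against 47.7% over all probes. Of 19 ribosomal protein probes, 7 were positive and 2 negative with all arrays, 14 and 2 without IR64 replicate 1, and 2 positive without IR64 replicate 2 or 3. Their median was -0.0364 on IR64 replicate 1 and 0.281 and 0.307 on replicates 2 and 3. RPL3 had 0.0628, 0.484 and 0.517, RPS3A 0.0284, 0.445 and 0.41 and RPL30 0.0467, 0.305 and 0.34, near 0 on IR64 replicate 1 in each case. All 3 lost their calls without IR64 replicate 2 (limma adjusted p = 0.103, 0.155 and 0.132) or 3 (0.0972, 0.145 and 0.133), and RPS3A also without Apo replicate 1 (0.0505) or 3 (0.053). RPL18 at 0.535 ± 0.0986 was positive and RPL27 at -0.718 ± 0.0147 negative on every array. Translation factors had 5 positive and 2 negative of 18 probes, against 10 and 3 without IR64 replicate 1, 9 positive under the replicate block, and 2 positive and 1 negative without IR64 replicate 2 or 3. The helicase eIF-4A-1 had 0.282 ± 0.0513. EF-1-alpha, the elongation factor that brings transfer RNA, had 0.103, 0.287 and 0.303 and lost its call without IR64 replicate 2 (0.0515) or 3 (0.0504). The ribosome-associated scaffold RACK1A had 0.00995, 0.368 and 0.40 (adjusted p = 0.033) and was not called without IR64 replicate 2 (0.166), IR64 replicate 3 (0.165) or Apo replicate 1, 2 or 3 (0.0598, 0.0536 and 0.0586). Chaperones and disulfide isomerases of the endoplasmic reticulum had 10 positive and 1 negative of 23 probes, with PDIL1-1 at 0.426 ± 0.198, PDIL2-2 at 0.336 ± 0.0989, ERDJ3B at 0.321 ± 0.0928 and ERDJ3A at 0.297 ± 0.111.

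Among growth-related lists, expansins, which loosen cell walls, and cell cycle and DNA replication held fewer calls than the array as a whole. Over all probes 43% were called, 22.7% positive and 20.2% negative. Expansins had 4 negative and 1 positive of 32 probes (15.6%), and cell cycle and DNA replication 6 positive and 5 negative of 50 (22%). The expansin positive count was 3, 0 and 2 without IR64 replicates 1, 2 and 3, 2 without Apo replicate 1 and 4 under the replicate block, and the negative count was 2 without IR64 replicate 3. The cell cycle positive count was 2 and 3 without IR64 replicates 2 and 3 and 10 with the block, and the negative count 10 without IR64 replicate 1 and 3 without IR64 replicate 2, IR64 replicate 3 or Apo replicate 3. EXPB3 had -0.45, -0.968 and -0.751, the D-type cyclin CYCD4-2 -0.832 ± 0.16, the replication factor RFC4 0.496 ± 0.0637 and the origin recognition protein ORC5 -0.339 ± 0.0948 (limma adjusted p = 0.000194 to 0.00623). Cellulose synthases and related enzymes had 7 negative and 4 positive of 32 probes. CESA4, a secondary-wall subunit, at 0.782 ± 0.138 and CSLH1 at 0.694 ± 0.0733 were positive, and the primary-wall subunits CESA3 at -0.352 ± 0.029 and CESA8 at -0.336 ± 0.0614 were negative. CSLF6, which makes mixed-linkage glucan, was negative on one probe at -0.373 ± 0.0235 and positive on another at 0.235 ± 0.154. Actins, tubulins and actin-depolymerizing factors had 11 negative and 5 positive of 22 probes, with 6 and 7 negative without IR64 replicates 2 and 3 and 3 positive without IR64 replicate 2, IR64 replicate 3 or Apo replicate 3. ACT2 had -0.62 ± 0.0198 and ADF2 -0.297 ± 0.0114, and ADF10 was positive with 0.986, 0.491 and 0.423, largest on IR64 replicate 1. Calcium sensors and their kinases had 24 negative and 15 positive of 70 probes, with 15 and 14 negative without IR64 replicates 2 and 3, and CML29 at -0.731 ± 0.162, CIPK3 at -0.63 ± 0.129, CIPK11 at -0.66 ± 0.159 and CIPK19 at -0.347 ± 0.047 had the smallest p-values (adjusted p = 0.000257 to 0.000317).

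**Figure D3:**
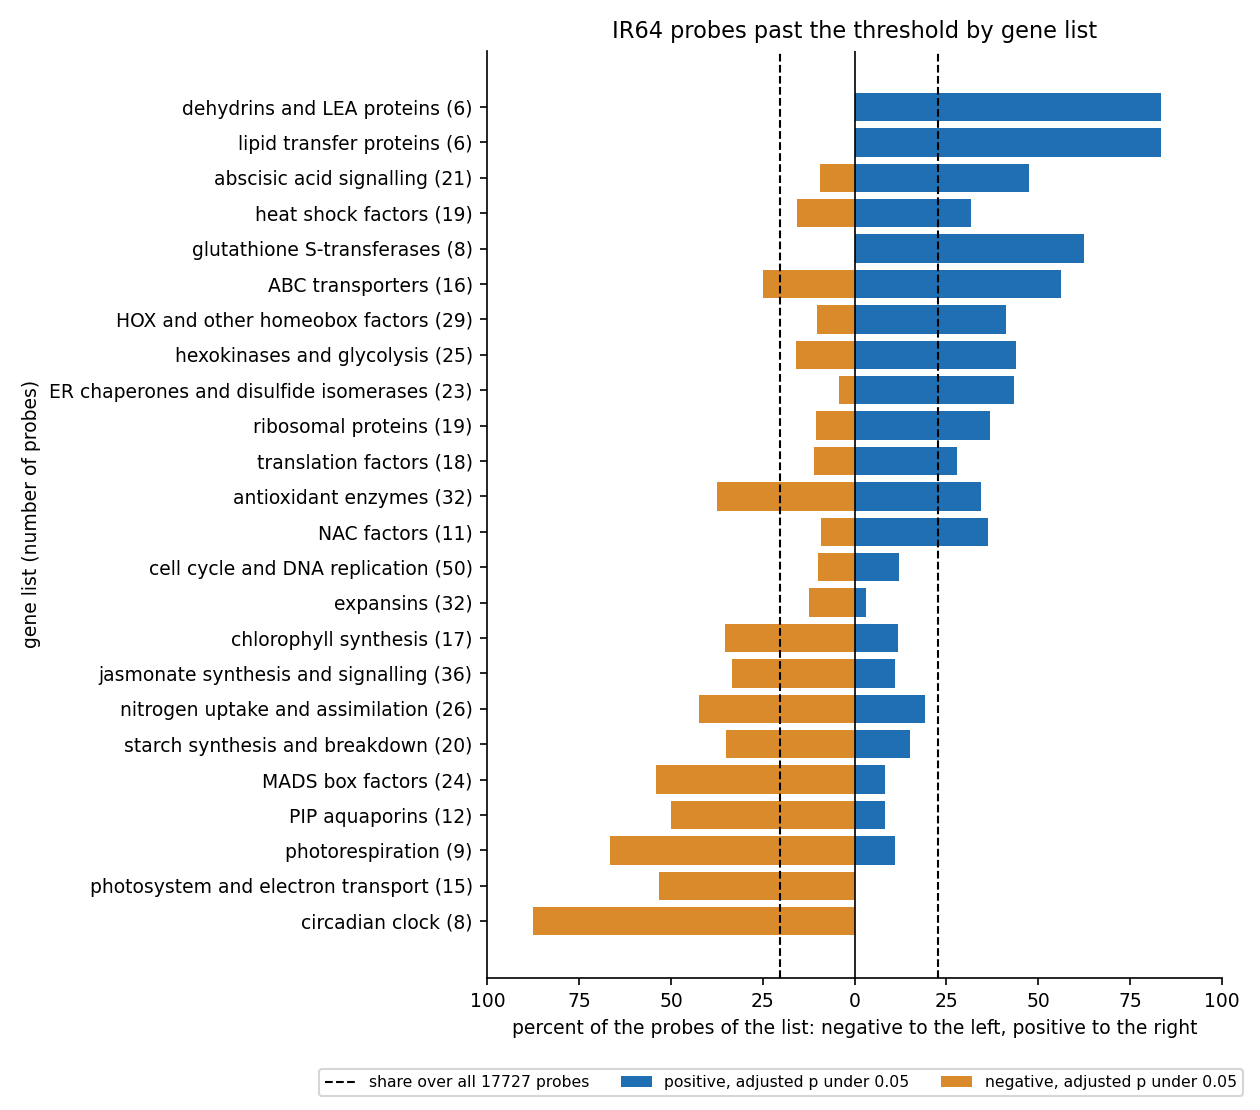
Share of the probes of each of 24 gene lists called positive (right) or negative (left) in IR64 with all 3 arrays, in percent, with the number of probes in brackets and dashed lines at the shares over all 17727 probes (22.7% positive, 20.2% negative). Dehydrins and lipid transfer proteins, with 5 of 6 probes each, have the largest positive shares, and the clock, with 7 of 8, the largest negative share; counts are a description and no list was tested.

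Markers of other tissues were looked at in the same way. The called share was 46.2% for root, 35.3% for vessel and secondary wall and 40% for anther markers. Over all probes it was 43% (22.7% positive, 20.2% negative). Of 13 root markers 1 was positive, RAA1 at 0.376 ± 0.0293, and 5 were negative. Of 17 markers of vessels and secondary walls 4 were positive and 2 negative, with 1 positive without IR64 replicate 2 or 3 and 1 negative without any 1 IR64 array. Of 5 anther markers 1 was called on each side, the negative one not without IR64 replicate 2. Of 6 seed storage proteins limma called 0, also at an unadjusted p under 0.05. The median of the root markers was 0.0321, -0.14 and -0.0968 on the 3 arrays and that of the seed storage proteins -0.00356, -0.0147 and -0.0711. These are ratios and give no level of the other tissues. Their part in the results above was not tested.

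IR64 replicate 1 departed from replicates 2 and 3 by gene group. The list medians of NAC factors were 0.303, -0.0391 and -0.088, and those of chlorophyll synthesis -0.165, 0.00892 and 0.0172, against Apo medians of 0.336 and -0.252. For photorespiration the Apo median was -0.685, for abscisic acid signalling 0.363 and for ribosomal proteins -0.0205, each nearer to IR64 replicate 1 than to the other IR64 arrays. For lipid transfer proteins and the clock the medians of the 3 IR64 arrays nearly coincided. These medians describe the arrays and carry no test.

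**Figure D4:**
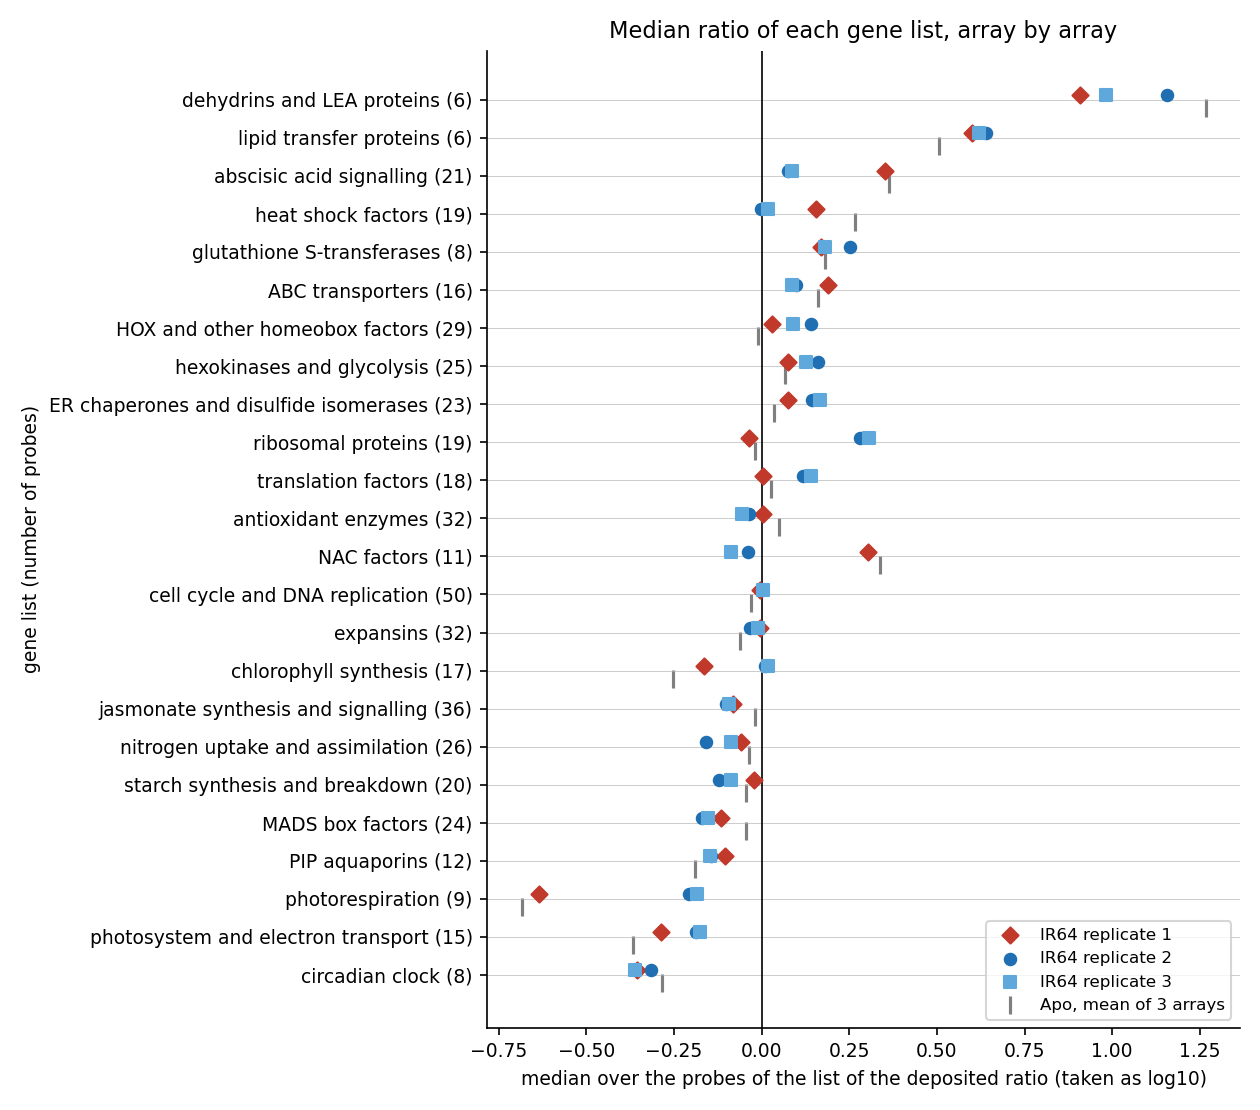
Median deposited log10 ratio of the probes of each gene list on each of the 3 IR64 arrays (points) and of the Apo mean over 3 arrays (grey bars), with the number of probes in brackets. IR64 replicate 1 (red) sits beside Apo and away from IR64 replicates 2 and 3 (blue) for photorespiration, chlorophyll synthesis, abscisic acid signalling, NAC factors and ribosomal proteins.

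Among called genes, the widest gaps with IR64 replicate 1 on the higher side were those of SAPK9, CML16, CML15, IRL5, BGLU31 and GH3.8. The SnRK2 kinase SAPK9 had 1.01, 0.22 and 0.277, so IR64 replicate 1 lay nearer to the Apo arrays, at 1.31, 1.22 and 1.2, than to IR64 replicates 2 and 3. The calmodulin-like proteins CML15 and CML16, calcium sensors, had 1.07, 0.353 and 0.361 and 1.09, 0.361 and 0.439, and GH3.8, which conjugates auxin, had 1.12, 0.506 and 0.506. BGLU31, a beta-glucosidase, had -0.0539, -0.619 and -0.716, near 0 only on IR64 replicate 1. IRL5, a leucine-rich repeat protein, had 0.865, 0.156 and 0.205 on one probe and 0.644, 0.327 and 0.346 on another, and both were positive. The widest gaps on the lower side were those of RAB16B, PHO1-3, LAC10, ROMT-17, IAA3 and RCABP69. The laccase LAC10 had 0.298, 1.05 and 1.15, the Aux/IAA repressor IAA3 -0.997, -0.406 and -0.521 and RCABP69 -1.15, -0.638 and -0.598. The O-methyltransferase ROMT-17 had 0.121, 0.661 and 0.709, while a second probe of it was not called at -0.084 ± 0.0873 (limma adjusted p = 0.221). Several of these calls were lost when 1 of the arrays was left out. SAPK9 (adjusted p = 0.031) missed the threshold without IR64 replicate 3 (0.0502) or Apo replicate 1, 2 or 3 (0.0621, 0.0517 and 0.0543). The first IRL5 probe (0.0453) missed it without IR64 replicate 2 (0.0513) or 3 (0.0646), without Apo replicate 1, 2 or 3 (0.0829, 0.0679 and 0.0746), and under the replicate block (0.0661). Without IR64 replicate 2 or 3, so did BGLU31 (0.132 and 0.128), LAC10 (0.0722 and 0.0667) and ROMT-17 (0.107 and 0.103). The other seven kept their calls whichever array was left out.

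Other genes were called only without IR64 replicate 1, and here the arrays stood on opposite sides of 0. PORA, a protochlorophyllide oxidoreductase of greening leaves, had -0.282, 1.27 and 1.25 (limma adjusted p = 0.112 with IR64 replicate 1 and 0.0090 without it). The catalase CAT-A had -0.424, 0.487 and 0.519, the light-regulated chloroplast protein LIR1 -0.118, 0.45 and 0.501, and AT4, an enzyme that adds p-coumarate to monolignols, -0.221, 0.318 and 0.578. C3H39 had -0.0755, 0.496 and 0.411 and Ub-CEP52-2, a ubiquitin fused to a ribosomal protein, -0.0624, 0.417 and 0.456; all 6 were negative on IR64 replicate 1 and positive on both other arrays. The jasmonate repressor TIFY11b had 0.112, -0.528 and -0.509, the nucleoredoxin Nrx1-1 0.263, -0.367 and -0.26, the metallothionein MT4A 0.0714, -0.464 and -0.421, the chitinase Cht4 0.0592, -0.323 and -0.298 and the zinc finger protein LSD1 0.0379, -0.183 and -0.417, all positive on IR64 replicate 1 and negative on both others. The factor myb30 had -0.0259, -0.493 and -0.21, negative on all 3. Adjusted p-values for these 12 genes were 0.0728 to 0.435 with IR64 replicate 1 and 0.000218 to 0.0433 without it. Under the replicate block and all arrays, PORA (0.00911), LIR1 (0.0442), C3H39 (0.0402), Ub-CEP52-2 (0.0181), MT4A (0.00524) and myb30 (0.0052) were called.

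Whether a drought ratio of IR64 differed from that of Apo was tested directly as IR64 minus Apo. With all arrays 358 probes differed (2.02%), 221 with a positive difference (1.25%) and 137 with a negative one (0.773%). All 358 had no overlap between the 3 IR64 and the 3 Apo arrays, as did 34.5% of all probes, and 4848 probes had an unadjusted p under 0.05. Without IR64 replicate 1 the count was 5959 (33.6%), 3498 positive (19.7%) and 2461 negative (13.9%), and it contained all 358; the 2 remaining IR64 arrays did not overlap with Apo for 63% of all probes. Under the replicate block it was 951, of which 640 were positive. Leaving out any other array left almost nothing: 5 without IR64 replicate 2, 0 without IR64 replicate 3 (2589 at an unadjusted p under 0.05), and 11, 9 and 12 without Apo replicates 1, 2 and 3. Of the 5959 probes, IR64 replicate 1 lay nearer to the Apo mean for 4350 (73.0%), against 62.3% of all probes. IR64 replicate 1 was left out because it lies nearer to Apo, which by itself favours larger differences in the other arrays, so the 5959 calls and the p-values from that fit give no independent support to a difference. That choice also favours the higher share.

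The largest positive differences, where the IR64 ratio was the more positive or less negative one, included secondary metabolism. The linalool synthase LIS, which makes a volatile terpene, had -0.554, -0.298 and -0.271 in IR64 and -1.81, -1.69 and -1.62 in Apo, a difference of 1.33 ± 0.090 (SE; limma adjusted p = 0.0060). PAL06, a phenylalanine ammonia-lyase, had 0.134, 0.357 and 0.358 in IR64 and -1.22, -0.684 and -0.665 in Apo, on opposite sides of 0; its IR64 ratio alone was not called (adjusted p = 0.085, 0.0132 without Apo replicate 1, and 0.0199 under the replicate block). CAD6, a cinnamyl alcohol dehydrogenase of lignin synthesis, had -0.811, -0.604 and -0.49 in IR64 and -1.32, -1.37 and -1.31 in Apo, negative throughout. BURP17, of the plant BURP domain family, had -0.132, -0.247 and -0.179 in IR64 and -1.01, -1.05 and -0.767 in Apo. BURP17's IR64 ratio against 0 (adjusted p = 0.0415) was not called without IR64 replicates 1, 2 or 3 (0.0652, 0.183 and 0.13) or Apo replicate 1 (0.0642). The ethylene receptor ETR3 had -0.323, 0.0848 and 0.00859 in IR64 and -0.837, -0.651 and -0.705 in Apo, and the uridine ribohydrolase URH2 0.0344, -0.123 and 0.0259 in IR64 and -0.566, -0.483 and -0.642 in Apo; both lay around 0 in IR64 and were not called there. The ribosomal protein rpl5 had 0.477, 0.624 and 0.665 in IR64 and -0.171, 0.0382 and 0.0474 in Apo, and the thioredoxin Trx25 0.54, 0.626 and 0.655 in IR64 and -0.0944, 0.0664 and 0.0566 in Apo, so both were away from 0 in IR64 and near it in Apo.

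The largest negative differences included regulators of the stress response. DREB1B, a cold- and drought-responsive factor, had -0.806, -0.848 and -0.888 in IR64 and -0.0167, -0.0139 and 0.0405 in Apo, a difference of -0.851 ± 0.0437 (SE; limma adjusted p = 0.0060). DREB1A had -0.543, -0.61 and -0.635 in IR64 and 0.231, -0.0843 and -0.13 in Apo. The floral MADS factor MADS14 had -0.512, -0.794 and -0.499 in IR64 and 0, 0.0395 and 0 in Apo and the chitinase Cht5 -0.541, -0.872 and -0.794 in IR64 and -0.0469, -0.139 and -0.207 in Apo, so that these 4 were negative in IR64 and nearer to 0 in Apo. The MADS14 ratios of Apo replicates 1 and 3 were exactly 0, as were 0.852% and 1.47% of tested probes on those arrays. What an exact 0 stands for is not recorded. MADS14 drops out when probes at 0 on any array are left out. The SnRK2 kinase SAPK1 had 0.883, 0.619 and 0.578 in IR64 and 1.32, 1.24 and 1.21 in Apo, and the homeobox factor HOX24 0.955, 0.706 and 0.676 in IR64 and 1.41, 1.36 and 1.34 in Apo; both were positive on all 6 arrays, with larger values in Apo. GER2, a germin-like protein, had 0.707, 0.0534 and 0.0951 in IR64 and 1.9, 1.57 and 1.52 in Apo, and its IR64 ratio was not called (adjusted p = 0.139; 0.0158 under the replicate block). The auxin response factor ARF16 had 0.333, 0.253 and 0.192 in IR64 and 1.35, 0.822 and 0.928 in Apo and was not called in IR64 either (adjusted p = 0.0699; 0.0388 with the block and 0.00753 without Apo replicate 1). The 16 differences had adjusted p-values of 0.0060 to 0.0488, and without IR64 replicate 1 all 16 were called at 0.00199 to 0.0206. Leaving out IR64 replicate 2 left 1 of the 16 called and leaving out IR64 replicate 3 left 0, and leaving out Apo replicates 1, 2 and 3 in turn left 1, 1 and 3.

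**Figure D5:**
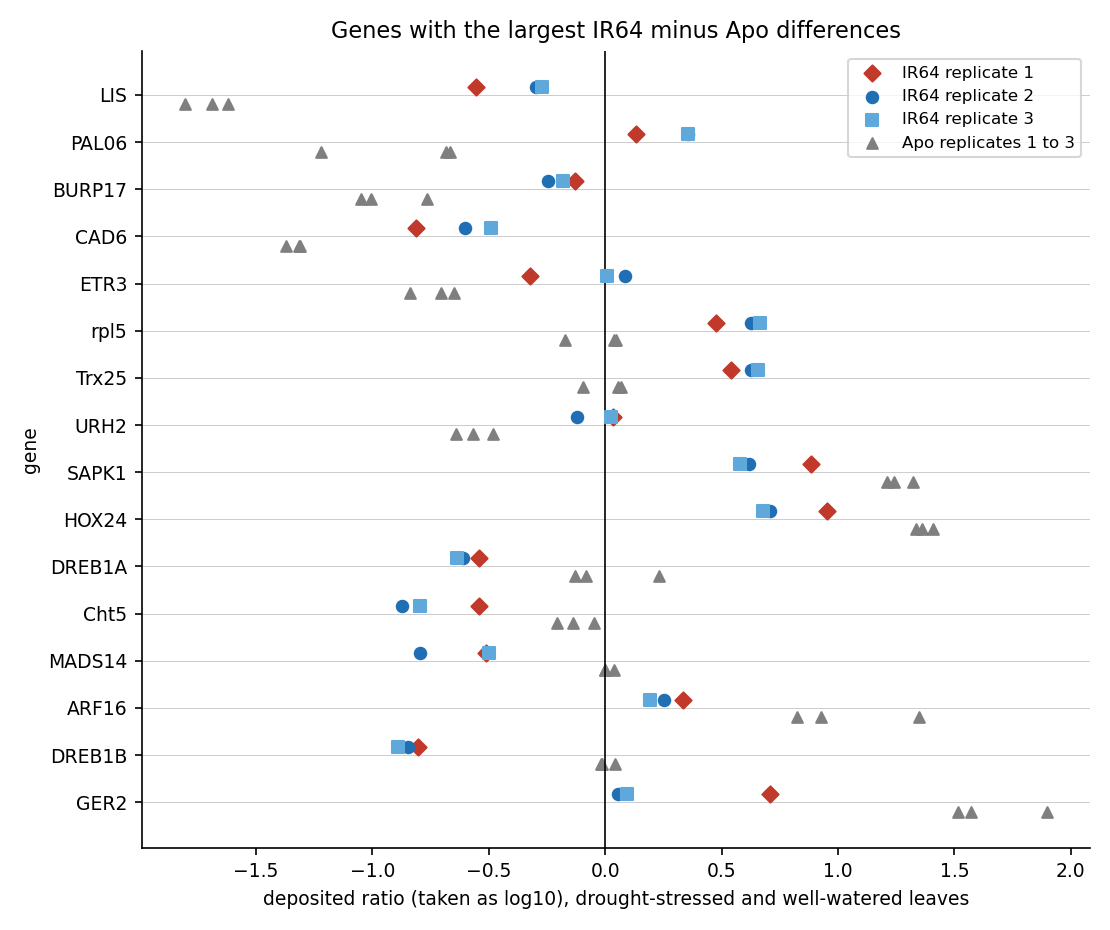
Deposited log10 ratios on the 3 IR64 arrays (coloured points) and the 3 Apo arrays (grey triangles) for the 8 named genes with the largest positive and the 8 with the largest negative IR64 minus Apo difference among called probes whose arrays do not overlap. DREB1A, DREB1B, MADS14 and Cht5 are negative in IR64 and nearer to 0 in Apo, and LIS and CAD6 are less negative in IR64. The MADS14 ratios of Apo replicates 1 and 3 are exactly 0.

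Some genes of the lists above differed with all arrays. On the positive side, AOS averaged -0.451 ± 0.0404 in IR64 and -0.824 ± 0.0311 in Apo, ORC5 -0.339 ± 0.0948 in IR64 and -0.88 ± 0.154 in Apo, and NRAMP4 on its positive probe 0.738 ± 0.105 in IR64 and 0.256 ± 0.0515 in Apo. On the negative side, MADS58 averaged -0.541 ± 0.0188 in IR64 and -0.163 ± 0.0777 in Apo, PPDK1 -0.832 ± 0.0178 in IR64 and -0.437 ± 0.0804 in Apo, SGR -0.0887 ± 0.152 in IR64 and 0.402 ± 0.0158 in Apo, and ZIP4 0.676 ± 0.0213 in IR64 and 0.976 ± 0.071 in Apo. The adjusted p-values of these 7 differences by limma were 0.0234 to 0.0434, and that of ZIP4 was 0.0515 under the replicate block. ORC5 and AOS were negative in both genotypes and less so in IR64, and SGR was not called in IR64 on its own.

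Most gene lists held few or no called differences with all arrays. By limma the called difference was positive for 1 of 19 ribosomal protein probes and negative for 1 of 21 abscisic acid signalling probes, and 0 differences were called for 18 translation factors, 17 chlorophyll synthesis probes, 15 photosystem probes, 19 heat shock factors, 11 NAC factors and 6 lipid transfer proteins. At an unadjusted p under 0.05, the difference was positive for 4 ribosomal protein, 4 translation factor, 9 chlorophyll synthesis and 4 photosystem probes and negative for 0, 1, 0 and 0. It was negative for 13 abscisic acid signalling probes, 8 heat shock factors and 5 NAC factors and positive for 1, 2 and 0, and for lipid transfer proteins it was positive for 2 and negative for 1. Other lists were divided at that level, with 10 positive and 8 negative of 43 auxin response probes, 6 and 5 of 35 cytokinin probes, 6 and 6 of 36 jasmonate probes and 7 and 9 of 70 calcium sensors and kinases. These counts are unadjusted, and over all probes 4848 of 17727 passed at that level. Among the 12 genes with the largest positive ratios, LTI6B averaged 1.28 ± 0.337 in IR64 and 1.98 ± 0.0672 in Apo (limma adjusted p = 0.073), ELA3 1.42 ± 0.0397 in IR64 and 1.63 ± 0.0274 in Apo (adjusted p = 0.0626), and HSF01 1.12 ± 0.213 in IR64 and 1.61 ± 0.0476 in Apo (adjusted p = 0.0653). For these 3 the arrays of the genotypes did not overlap, as for 34.5% of all probes and for PP2C59, r40c1 and RAB16C of the same 12. None of these differences was called with all arrays. PP2C59 had the smallest adjusted p of the 12, 0.0507, with 1.28 ± 0.0752 in IR64 and 1.58 ± 0.0449 in Apo. Without IR64 replicate 1 the differences of LTI6B, ELA3 and HSF01 were called (adjusted p = 0.00242, 0.0186 and 0.00304). Of the genes named for the size of their ratio or for their gap on IR64 replicate 1, the replicate block also called the difference of HSF01 (0.0497), PP2C59 (0.0471), mfs1 (0.0497), PORA (0.0451), CAT-A (0.0492), AT4 (0.0467), MT4A (0.032), LAC10 (0.0415) and ROMT-17 (0.0332) with all arrays.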

How the data were processed

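Leaf RNA was labelled with a linear amplification kit after TRIzol extraction, per the labels' protocols, and, per the submitters' processing notes, Agilent Feature Extraction 8.1 read the arrays. The deposited values are log ratios per spot, taken as log10; the sources used here do not give their base, sign, dye normalization or background correction. They were used as deposited. Array medians lay at 0 to within 0.00201, and intensities were not used.

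Of 22575 spots, 17860 had an annotated gene (17839 a single gene, 21 several). After 133 at exactly 0 on all 6 arrays were left out, 17727 were tested. Names are synonyms from a gene table of the assembly ASM3414082v1, in which all 17839 identifiers were found. Probes of the same gene were not combined: 1832 genes had more than 1, and where more than 1 was called (398 genes) the calls lay on both sides for 91.

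With limma 3.58.1 (lmFit, eBayes), a mean for IR64 and one for Apo were fitted over the 6 arrays (prior degrees of freedom 2.5, residual 4) in R 4.3.3, with Benjamini-Hochberg adjustment over all tested probes and a threshold of 0.05. It was tested on simulated data in which arrays were independent and alike in spread. Those data held no array set apart as IR64 replicate 1 is and no pairing by replicate number. Tables and figures used Python 3.11.15, pandas 2.3.3 and matplotlib 3.10.9.

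Named genes were the 12 largest called IR64 means per side, the 8 largest called differences per side whose arrays do not overlap, 6 per side called only without IR64 replicate 1, the 6 widest gaps per side of IR64 replicate 1, and members of 70 gene lists, the 4 with the smallest p-value and others. These lists were redrawn as gene names once the files were read; some planned themes, such as wax and cuticle, found no member. Members, lists and rules were chosen with earlier results of these data known.

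Deviations from the genotype means of same-numbered IR64 and Apo arrays correlated at 0.322, 0.261 and 0.340 across probes, and those of different numbers at -0.260 to 0.0166. Numbers were therefore taken to pair the arrays, and a fit with the number as a block was an alternative, beside left-out arrays, other scaling, filters, probe sets and variance models. The main fit, which gave the counts and p-values unless stated otherwise, ignores this pairing. With the block the count was 8626 against 7619 in IR64, and 951 against 358 for the difference.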

Additional observations from a re-analysis of the deposited data

Results flagged for a closer look

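For 16 genes the IR64 minus Apo difference passed limma's test of the difference itself (adjusted p = 0.0060 to 0.0488). They were chosen among called probes whose 3 IR64 and 3 Apo arrays do not overlap. All 358 called probes met that condition, as did 34.5% of all probes, so it adds no support. On the log10 scale the difference was positive for LIS (1.33), PAL06 (1.14), BURP17 (0.755), CAD6 (0.697), ETR3 (0.654), rpl5 (0.617), Trx25 (0.597) and URH2 (0.543). It was negative for GER2 (-1.38), DREB1B (-0.851), ARF16 (-0.774), MADS14 (-0.615), Cht5 (-0.604), DREB1A (-0.602), HOX24 (-0.589) and SAPK1 (-0.564). Without IR64 replicate 1 the differences were 1.42 for LIS, 1.21 for PAL06, -1.59 for GER2 and -0.872 for DREB1B, and all 16 passed the threshold, in a fit that leaves out the IR64 array nearest to Apo; without any other array at most 3 did. These are the extremes of 358 called probes, chosen by size. For MADS14 the ratios of Apo replicates 1 and 3 were exactly 0, and what an exact 0 stands for is not recorded.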

How the results depend on the processing

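The IR64 count of 7619 probes was 5076 to 8457 when 1 of the 6 arrays was left out, 8626 with the replicate number as a block, 5328 on the IR64 arrays alone, 7620 with median-centred arrays, 8055 with scaled arrays, 7682 without probes at 0 on any array, 8966 over all spots, 6888 over gene averages, 7747 with a trend and robust variance and 3141 with a 2-fold minimum. The difference count of 358 was 0 to 5959 when 1 array was left out, 951 with the replicate number as a block, 228 with a trend and robust variance, and 244 to 438 under the other settings. The cause was not tested. Over 240 probes named in the text, 3355 values were recomputed: 3203 stayed on their side of the threshold with the same sign, 85 lost and 46 gained a call, 11 changed sign without a call on either side, and 10 changed sign with a call. Those 10 came from averaging the probes of a gene, which joins probes of opposite sign: GLO1 -0.0119, ABCG39 0.107, eIF-4G -0.246, MT2B -0.735, ROMT-17 0.207, NIA1 -0.374, NRAMP4 0.269, LOG -0.256, TIFY6b -0.191 and CSLF6 -0.0688. Beside the calls given above with it, the replicate block changed no IR64 call of these probes. Channel intensities were not used, so what depth limits cannot be given beyond the 3 arrays per genotype.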

Other observations

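Spots without an annotated gene were not used above. When all 22575 spots were fitted together, limma called 1501 of the 4715 such spots in IR64 (31.8%), against 7465 of the annotated probes (42.1%).

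Phosphatases 2C not sorted by clade were called negative in 19 and positive in 10 of 53 IR64 probes, although PP2C59 and PP2C30 were positive. The called share was 54.7% for them, 52.2% for the MAP kinase cascade and 70% for carotenoid and tocopherol enzymes. Over all probes it was 43% (22.7% positive, 20.2% negative). MAP kinase cascade probes had 8 negative and 4 positive calls of 23 (5 negative without IR64 replicate 2, 2 positive without IR64 replicate 3), and carotenoid and tocopherol enzymes 5 and 2 of 10 (3 negative without IR64 replicate 2). Limma called 0 of the 4 autophagy probes in IR64 with all arrays, also at an unadjusted p under 0.05, and 1 was negative without IR64 replicate 1.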
